A study of Homo sapiens with 2 samples.

Results

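The miR-181 family was followed in FaDu (labelled FadU), an established squamous cell line from a hypopharyngeal tumour, of which sphere cells and parental cells were each profiled by small RNA sequencing. The 5 members described are the guide arms miR-181a-5p, miR-181b-5p, miR-181c-5p and miR-181d together with miR-181c-3p, the opposite arm of the miR-181c hairpin, chosen by name out of 2038 listed miRNA names. Sphere cells, which the labels describe as cancer stem cells derived from spheres, were grown in DMEM-F12, with no serum named in the labels, but with EGF and recombinant bFGF (10 ng/ml of each) and N2 Plus Supplement. Parental cells were grown in RPMI-1640 with 10% FBS. Both media held 1% penicillin and streptomycin, and the groups differ in medium, growth factors and growth form at once, which cannot be told apart. There was 1 library per group, so nothing below has a replicate check and no test between conditions is possible.

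A microRNA hairpin is cut into a short duplex, of which the guide arm is mostly kept in Argonaute and the opposite, passenger arm is mostly discarded. The guide pairs with messenger RNAs chiefly through its seed, bases 2 to 8, so that miRNAs with a common seed share many potential targets. The miR-181 family is best known from lymphocytes, where in mice miR-181a tunes the sensitivity of developing T cells to antigen, and its members are also present in many epithelial and nervous tissues.

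The mature sequences show why the family is treated as one and how little separates its members. They are written 5′ to 3′ with the seed in capitals, as RefSeq annotates them on GRCh38.p14, where all 5 members were matched. miR-181d is listed there as miR-181d-5p.
miR-181a-5p: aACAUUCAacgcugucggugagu
miR-181c-5p: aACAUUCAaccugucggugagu
miR-181b-5p: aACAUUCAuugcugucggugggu
miR-181d: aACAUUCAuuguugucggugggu
miR-181c-3p: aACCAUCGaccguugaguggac
The 4 guide arms share their first 8 bases and therefore the seed. With positions counted from 1 at the 5′ end, miR-181b-5p differs from miR-181a-5p by A9U, C10U and A21G, and miR-181d differs from miR-181b-5p by C12U alone. miR-181c-5p aligns to miR-181a-5p with 1 missing base and no substitution. By sequence the guide arms thus form the pairs a with c and b with d, whereas by position in the genome they pair as a with b and c with d. miR-181c-3p has another seed. Among the 1715 of 2038 listed names with a sequence in the RefSeq table, 1 further name carries the miR-181 seed, miR-4262, which was listed at 0 in both libraries, a value that allows up to 31.3 RPKM in spheres and 22.7 RPKM in parental cells (3 reads).

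On GRCh38 the family comes from 3 clusters. MIR181A1 (chromosome 1, 198859044 to 198859153, minus strand) and MIR181B1 (198858873 to 198858982) lie 61 bases apart within introns of the non-coding host gene MIR181A1HG. MIR181A2 (chromosome 9, 124692442 to 124692551, plus strand) and MIR181B2 (124693710 to 124693798) lie in introns of MIR181A2HG, which runs antisense to NR6A1. MIR181C (chromosome 19, 13874699 to 13874808, plus strand) and MIR181D (13874875 to 13875011) lie 66 bases apart in an intron of NANOS3. miR-181a-5p and miR-181b-5p are each made from chromosomes 1 and 9 and their reads cannot be assigned to either copy, while miR-181c and miR-181d are made from chromosome 19 only.

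The files give RPKM, reads per kilobase of mature miRNA and per 1000000 reads. RPKM summed to 5509071 in the sphere library and 26530004 in the parental library, so the deposited scale and the share of miRNA give different pictures. Member values are therefore given as deposited and as rescaled RPKM, with each column brought to a sum of 1000000. A log2 fold, spheres over parental, is 2.27 lower on the deposited scale away from the floor. Taking the commonest low value as 1 read on 22 nt, an estimated 683696 reads in spheres and 4550749 in parental cells lay on miRNAs. On the same assumption these were 12.1% of 5630047 reads behind the RPKM in spheres and 58.5% of 7782765 in parental cells. Most sphere reads behind the RPKM thus did not lie on the listed miRNAs. The 95% intervals below come from such estimated reads, describe the 2 libraries rather than the conditions. They hold counting error alone, and PCR copies of one molecule are counted as if independent.

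The libraries carried the markers of an epithelial line. All 5 epithelial markers, led by miR-203a in spheres and miR-205-5p in parental cells, were measured, with a sum of 68493 rescaled RPKM in spheres and 28907 in parental cells. miR-203a (35056 in spheres and 2698 in parental cells) and miR-141-3p (12264 and 2710.4) account for the higher sum in spheres. miR-200c-3p (925 and 585) was also higher there, while miR-205-5p (19458 and 21938) and miR-200b-3p (790.1 and 975) were lower. As deposited, only miR-203a of these was higher in spheres (193129 RPKM and 71582 in parental cells), and the rest were lower. Of 7 blood cell markers, relevant because lymphocytes are rich in miR-181, only miR-486-5p was measured. The list summed to 241 rescaled RPKM in spheres and 745 in parental cells, of which miR-486-5p made up 207 in spheres and 741 in parental cells. The scarce markers miR-150-5p (13.2 in spheres and 0 in parental cells), miR-142-3p (2.80 and 0), miR-142-5p (12.3 and 3.25) and miR-451a (5.86 and 0.44) went the other way. As deposited, miR-142-5p was lower in spheres (67.6 RPKM and 86.2 in parental cells), while miR-150-5p, miR-142-3p and miR-451a stayed higher. miR-144-3p was at 0 in both libraries and miR-223-3p at 0 in spheres. Both endothelial markers were measured, with a sum of 445 in spheres and 192 in parental cells, as was 1 of 5 mesenchymal markers, with sums of 76.5 and 28.9 for that list. As deposited, miR-126-5p (2070 RPKM in spheres and 4083 in parental cells) and miR-126-3p (379 and 1016) were lower in spheres. The measured mesenchymal marker, miR-143-3p, was also lower as deposited (365 and 686). The liver miRNA miR-122-5p was at 0 in both. The part of other cells in the miR-181 values was not tested.

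As a share of miRNA, the guide arms together were more abundant in spheres. They made up 1.02% of the miRNA signal there and 0.416% in parental cells, a fold of 2.45 (2.38 to 2.51). As deposited, their summed RPKM was lower, at 56120 in spheres and 110407 in parental cells, a ratio of 0.508 (0.493 to 0.521). The sign of the family's difference therefore depends on whether miRNA or all reads behind the RPKM serve as the base.

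miR-181a-5p was the most abundant member in both libraries. It had 6790.0 rescaled RPKM in spheres and 2515 in parental cells, on 4844 and 11942 estimated reads, and ranked 25th and 41st among all names. The sphere value was 2.70-fold higher (2.61 to 2.79). As deposited it had 37406 RPKM in spheres and 66712 in parental cells, a log2 fold of -0.83.

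miR-181b-5p, its neighbour at both a/b loci, had the smallest fold of the 5 members on the rescaled scale and the largest deficit as deposited. It had 1524 rescaled RPKM in spheres and 1045 in parental cells, a fold of 1.46 (1.36 to 1.56). As deposited the values were 8397 RPKM in spheres and 27723 in parental cells, with a log2 fold of -1.72. From the same clusters, the a and b guides thus parted: the ratio of miR-181a-5p to miR-181b-5p was 4.45 in spheres and 2.41 in parental cells, a log2 difference of 0.89 (0.78 to 1.00) that no scaling of the columns can alter.

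miR-181c-5p showed the highest fold of the 5 members. It had 1172 rescaled RPKM in spheres and 179 in parental cells, on 800.0 and 811 estimated reads, a fold of 6.56 (5.95 to 7.25). It was the only member that was also higher as deposited, with 6459 RPKM in spheres and 4739 in parental cells, a fold of 1.36 (1.24 to 1.51). Among the 269 measured miRNAs, which averaged 10 rescaled RPKM or more over both libraries, its fold ranked 23rd from the highest.

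miR-181d lies next to miR-181c on chromosome 19 but did not share this difference. It had 700.4 rescaled RPKM in spheres and 423 in parental cells, a fold of 1.65 (1.498 to 1.83). As deposited it had 3858 RPKM in spheres and 11233 in parental cells, with a log2 fold of -1.54. The ratio of miR-181c-5p to miR-181d was 1.67 in spheres and 0.422 in parental cells, so the order of these neighbours was inverted between the libraries, and their log2 folds differed by 1.99 (1.79 to 2.19).

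**Figure D1:**
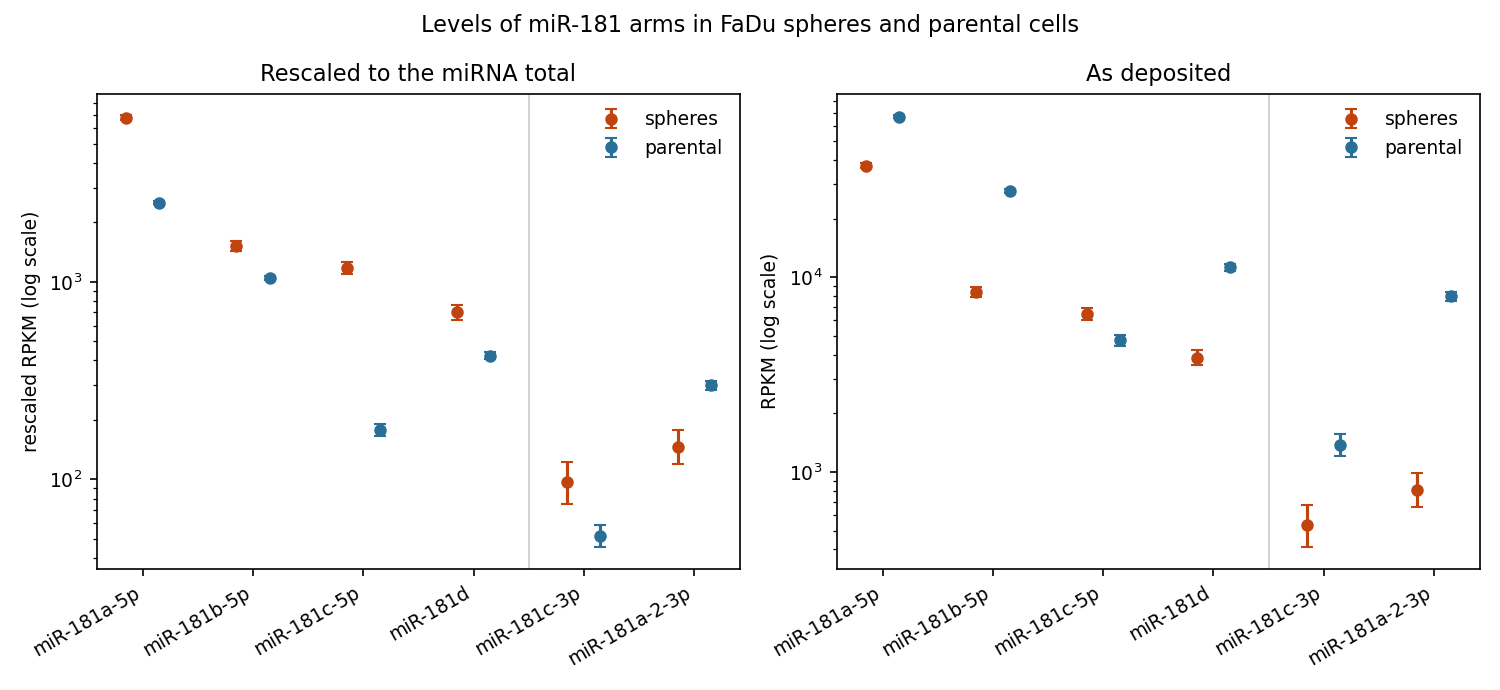
RPKM of the 5 members and of miR-181a-2-3p (y axis, log scale) in the sphere and parental libraries, rescaled to the miRNA total on the left and as deposited on the right; points are single libraries and bars are exact Poisson 95% intervals of the estimated reads. Spheres lie above parental cells for all 5 members on the rescaled scale, with the widest gap for miR-181c-5p (1172 against 179), and only miR-181c-5p lies above as deposited; miR-181a-2-3p lies below in both panels.

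The levels of the guide arms, from high to low, ran in the order a, b, c, d in spheres and a, b, d, c in parental cells. Neighbours in each order had Poisson intervals that did not overlap. The nearest were miR-181b-5p and miR-181c-5p in spheres, with intervals of 1434 to 1617 and 1093 to 1257 rescaled RPKM.

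The make-up of the family shifted accordingly, and this description is free of the choice of scale. miR-181a-5p made up 66.7% of the summed guide-arm RPKM in spheres and 60.4% in parental cells. miR-181b-5p accounted for 15.0% in spheres and 25.1% in parental cells. The share of miR-181c-5p was 11.5% in spheres and 4.29% in parental cells. miR-181d contributed 6.88% in spheres and 10.2% in parental cells. The a and c guides therefore took larger shares in spheres and the b and d guides smaller ones. By estimated reads the exact (Clopper-Pearson) intervals of the shares did not overlap for any of the 4, for example 10.3% to 11.8% in spheres and 3.84% to 4.398% in parental cells for miR-181c-5p.

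**Figure D2:**
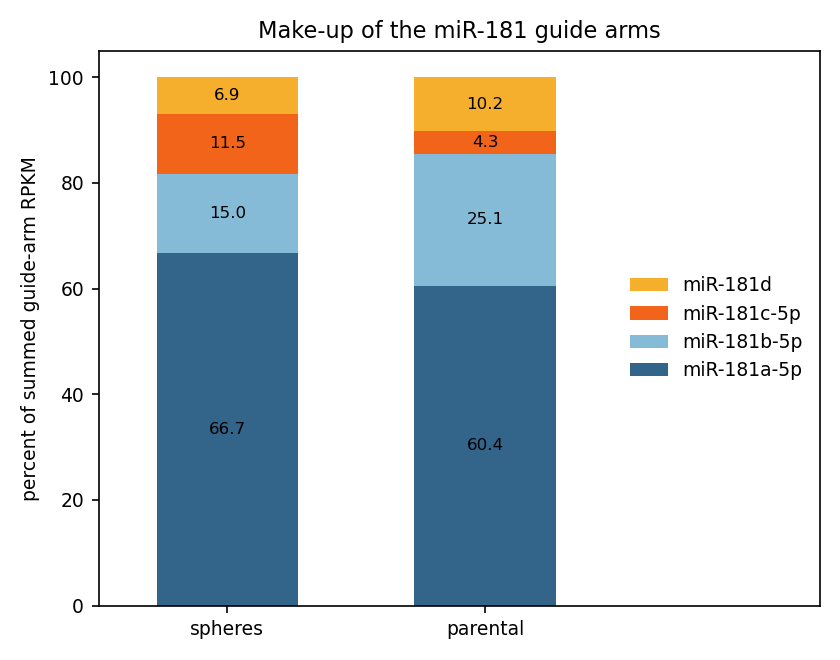
Percent of the summed guide-arm RPKM (y axis) held by each of the 4 miR-181 guide arms in the sphere and the parental library, 1 stacked bar per library. miR-181c-5p holds 11.5% in spheres and 4.29% in parental cells, while miR-181b-5p holds 15.0% and 25.1%.

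All 6 pairs of guide arms had an interval of their log2 fold difference that did not include 0, though these intervals take no account of reads that match several members. The closest pair was miR-181b-5p and miR-181d, which lie on different chromosomes and differ by C12U. Their ratio, b over d, was 2.18 in spheres and 2.47 in parental cells, a log2 difference of -0.18 (-0.36 to -0.01). The next closest was miR-181a-5p against miR-181d at 0.71 (0.56 to 0.86). miR-181b-5p against miR-181c-5p lay farthest apart, at -2.17 (-2.34 to -1.999), followed by the chromosome 19 neighbours c and d. miR-181a-5p against miR-181c-5p, the other pair of near-identical sequence, stood at -1.28 (-1.43 to -1.13).

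Compared as loci, the summed c/d guides were at 1873 rescaled RPKM in spheres and 602 in parental cells, a log2 fold of 1.64. The summed a/b guides were at 8314 in spheres and 3559.6 in parental cells, a log2 fold of 1.22. The c/d locus thus supplied 18.4% of guide-arm RPKM in spheres and 14.5% in parental cells, and its log2 fold was 0.41 higher (0.29 to 0.50, from estimated reads). This difference rested on miR-181c-5p. Without it the c/d locus, then miR-181d alone, had a log2 fold 0.50 below that of the a/b loci, a value of -0.50 (-0.65 to -0.35), while miR-181c-5p alone stood 1.49 above (1.34 to 1.64). The split between the clusters was therefore smaller than the split within the c/d cluster.

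Against the rest of the miRNAs, the family's counts were modest. Of the 5 members, all measured, 2 were at least 2-fold higher in spheres on the rescaled scale (miR-181a-5p and miR-181c-5p) and none was at least 2-fold lower. Among all 269 measured names 23% were at least 2-fold higher and 19% at least 2-fold lower. The median log2 fold of the 5 members was 0.89, against 0.02 over all measured names, whose middle 50 percent ran from -0.70 to 0.84. For the same 2 members even the lower bound of the fold exceeded 2, as it did for 17.1% of measured names, and for no member did the whole interval lie beyond 2-fold lower, as it did for 6.69% of names. On the deposited scale none of the 5 was at least 2-fold higher and 3 were at least 2-fold lower (miR-181b-5p, miR-181d and miR-181c-3p), where 6.32% and 79.6% of all measured names passed. The deposited median was -1.37 for the members and -2.25 for all measured names.

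**Figure D3:**
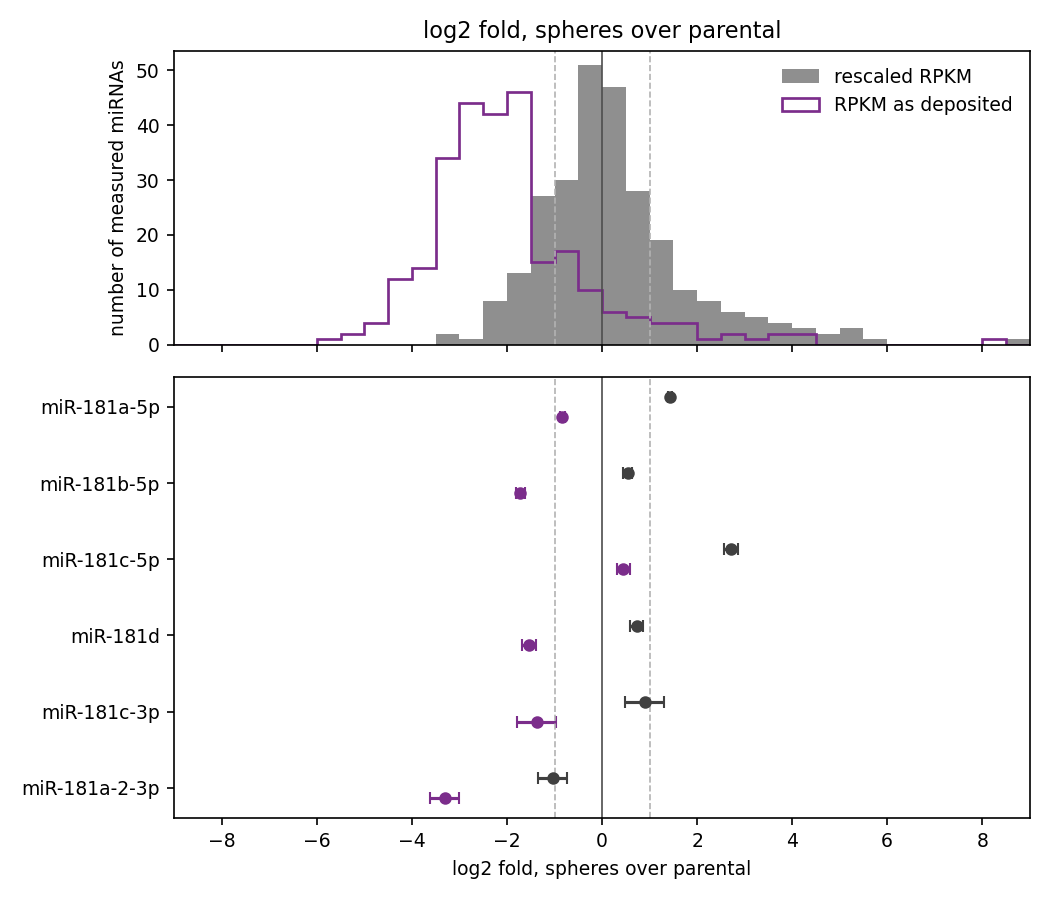
The upper panel counts measured miRNAs (y axis) by log2 fold, spheres over parental (x axis), and the lower panel places the miR-181 arms on the same axis with exact 95% counting intervals, in grey for rescaled RPKM and in purple for RPKM as deposited; dashed lines mark 2-fold. The 5 members lie between 0.54 and 2.71 on the rescaled scale, miR-181a-2-3p lies at -1.03, and on the deposited scale only miR-181c-5p lies above 0.

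Both measured passenger arms were lower in spheres relative to their guides, though miR-181c-3p itself was higher on the rescaled scale. The hairpins of miR-181c and of the chromosome 9 copy of miR-181a are shown because both of their arms were measured, with the arms in capitals, the guide first (RefSeq, GRCh38.p14, both on the plus strand).
MIR181C: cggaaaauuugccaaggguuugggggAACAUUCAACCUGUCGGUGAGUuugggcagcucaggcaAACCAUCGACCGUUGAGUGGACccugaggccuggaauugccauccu
MIR181A2: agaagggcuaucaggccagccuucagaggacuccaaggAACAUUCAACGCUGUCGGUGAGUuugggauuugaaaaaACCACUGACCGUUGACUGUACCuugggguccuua
miR-181c-3p had 96.7 rescaled RPKM in spheres and 52.0 in parental cells, on 66 and 236 estimated reads, a fold of 1.86 (1.39 to 2.46). As deposited it had 533 RPKM in spheres and 1378 in parental cells, with a log2 fold of -1.37. Since the fold of its guide was larger, miR-181c-3p took 7.62% of the RPKM of the 2 arms in spheres (exact interval 5.94% to 9.59%) and 22.5% in parental cells (20.04% to 25.2%). The guide was 12.1 times as abundant as the passenger in spheres and 3.44 times in parental cells, a log2 change of -1.82 in passenger over guide (-2.26 to -1.39).

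miR-181a-2-3p, the passenger arm made only from chromosome 9, was the one measured miR-181 arm that was lower on both scales. It had 147 rescaled RPKM in spheres and 300.3 in parental cells, on 100 and 1364 estimated reads, and was 2.05-fold lower (1.67 to 2.54). As deposited it had 807 RPKM in spheres and 7966 in parental cells, 9.87-fold lower (8.05 to 12.2). Against miR-181a-5p it took 2.11% of the RPKM in spheres and 10.7% in parental cells, a log2 change of -2.47 (-2.78 to -2.17). Because the guide is shared with chromosome 1, this ratio does not describe the arms of the chromosome 9 hairpin alone.

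The passenger arms of the chromosome 1 cluster were scarce. miR-181a-3p was listed at 0 in spheres, which allows up to 24.2 RPKM, and at 245 RPKM in parental cells, on 42 estimated reads. Its parental value was 2.10 times that limit (3 reads in the library) on the rescaled scale and 10.1 times as deposited. These ratios leave out the counting error of the parental value (177 to 332 RPKM), so they are not firm lower bounds on the fold. miR-181b-3p had 4.23 RPKM in spheres and 9.59 in parental cells, below the limit of 3 reads in both libraries. In parental cells the passenger signal of miR-181a was thus almost wholly that of the chromosome 9 copy.

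A lower ratio of the less to the more abundant arm in spheres was common among hairpins. The less abundant arm was set by the mean of both libraries and need not be the passenger. Arms made by several hairpins, such as miR-125b-5p, can enter more than 1 pair. The comparison over all hairpins was chosen after the miR-181 arms had been seen. Of 48 pairs of arms in which both were measured, the ratio of the less to the more abundant arm was lower in spheres for 35, with a median log2 change of -0.51, and at least 2-fold lower for 15, or 31.2%. At least 2-fold higher ratios occurred in 4 pairs, or 8.33%. The miR-181a-2-3p pair ranked 3rd from the lowest and the miR-181c-3p pair 9th, and the lowest was miR-24-2-5p over miR-24-3p.

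**Figure D4:**
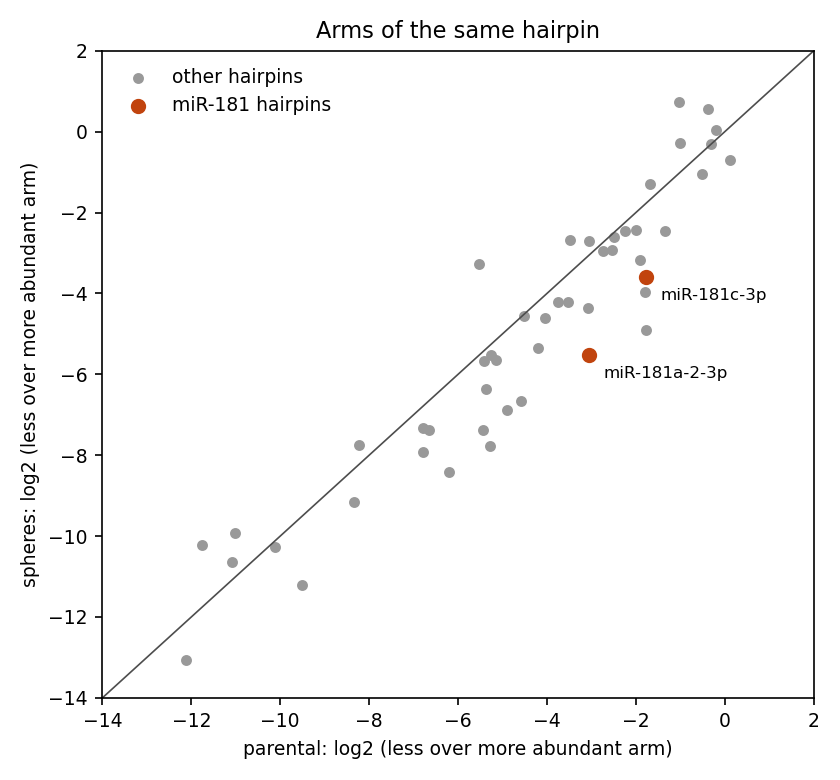
log2 ratio of the less to the more abundant arm of the same hairpin in spheres (y axis) against parental cells (x axis), 1 point for each of 48 pairs with both arms measured, with the line of equal ratios. Both miR-181 pairs lie below the line, at log2 changes of -2.47 (miR-181a-2-3p) and -1.82 (miR-181c-3p), as do most other pairs.

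Not every estimate came to a whole number of reads. With each name's own mature length, miR-181c-3p came to 66.0 and 236 reads and miR-181a-2-3p to 100 and 1364, all whole within 0.01. miR-181b-3p came to 0.5 and 1.57 reads. The 4 guide arms did not come to whole reads in either library, for instance 1087.31 reads of miR-181b-5p in spheres and 4962.51 in parental cells. How the authors divided reads that match several members is not given in the sources used here, so the split among the guide arms is less certain than their sum, and the counting intervals do not cover it.

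By level in both libraries, measured as the distance between log2 rescaled levels over the 2 libraries, miR-181a-5p lay closest to miR-103a-3p (0.63), miR-221-3p (0.64) and miR-27a-3p (0.71). The nearest to miR-181c-5p was miR-24-3p (0.42), with 1509 rescaled RPKM in spheres and 205 in parental cells. The next were miR-5701 (1.04) and miR-532-5p (1.18), both already farther off.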

How the data were processed

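Small RNA libraries of sphere and parental FaDu cells (1 each) were size-selected and built with a TruSeq kit from 1 µg of total RNA, per the labels' protocols. The authors deposited 1 RPKM value per mature miRNA name, per the file headers. The build is hg19, per the submitters' processing notes. For the aligner, the annotation release and reads with several matches, the method is not given in the sources used here. Columns were rescaled to sum to 1000000, and log2 folds used a pseudocount of 0.5 on either scale, which understates changes of low miRNAs. Folds of single names with intervals are ratios of estimated reads without the pseudocount. For the summed guide arms, guide-arm pairs and loci, the values are RPKM ratios without it, and only the intervals use estimated reads. Names that averaged 10 rescaled RPKM or more over both libraries counted as measured. Reads were estimated as RPKM times mature length, scaled so that the commonest value (8.07 RPKM in spheres, 5.84 in parental cells) is 1 read on 22 nt. Of values between 0.9 and 50 reads, 51.8% (spheres) and 52.8% (parental) came out whole within 0.01. The length and read number assigned to that commonest value are assumptions. Intervals are 95% Clopper-Pearson, Poisson or conditional odds-ratio intervals (SciPy 1.17.1). A value of 0 allows up to 3 reads. Lengths and sequences of 1715 of 2038 names were found in RefSeq (GRCh38.p14), and host genes in GENCODE 29. The fold, its interval and the 2-fold call were tested on simulated whole, independent reads. That simulation did not cover the estimate of reads from RPKM, odds-ratio intervals, arm shares or reads that match several members.

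Members and lists were chosen with earlier results of these data known. The names given are the members, the other listed miR-181 arms, names with the same seed, arms of the neighbouring miR-23a, miR-27a and miR-24-2 hairpins, the 3 nearest names to miR-181a-5p and miR-181c-5p, and cell type markers. Alternatives were 5 scalings, 2 pseudocounts, filters, a call by the whole interval, and other sums for the loci.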

Additional observations from a re-analysis of the deposited data

How the results depend on the processing

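RPKM as deposited gave log2 folds of -0.83 (miR-181a-5p), -1.72 (miR-181b-5p), 0.45 (miR-181c-5p), -1.37 (miR-181c-3p) and -1.54 (miR-181d), and changed the members at least 2-fold higher to 0 and those lower to 3, in place of 2 and 0. By construction this follows the miRNA sums of the libraries. Upper quartile scaling gave 1.21 (a), 0.32 (b), 2.49 (c-5p) and 0.51 (d), and the total without the 20 most abundant names 1.16, 0.27, 2.44 and 0.45. Median of ratios and trimmed mean scaling moved all folds by 0.03 or less in size (shifts of -0.02 and -0.03). Apart from the deposited scale, every alternative kept 2 members higher and 0 lower.

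The c/d minus a/b difference of 0.41 was 0.73 from member medians and reversed to -0.50 without miR-181c-5p. It was 1.49 without miR-181d, a setting added after seeing the data. All listed arms (0.46) and estimated reads (0.39) stayed within its interval, and the miR-181c arm shares did not move with the latter. Over the 269 measured names, 62 higher and 51 lower became 17 and 214 as deposited. The other filters changed the set of names as well. With no filter, over all 2038 listed names, the counts were 193 and 180. Among the 129 names with a mean of at least 100 they were 23 and 18. Asking for the whole interval left 18 lower of the 269. Fewer sphere reads limit low names. No paired analysis was possible because each group has 1 library, and no replicate could be left out.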

Other observations

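The miR-23a, miR-27a and miR-24-2 hairpins lie near MIR181C on chromosome 19, on the opposite strand. The nearest of them, MIR23A, is 38039 bases away. miR-24-3p, also made on chromosome 9, was 7.35-fold higher in spheres on the rescaled scale (6.72 to 8.04), while miR-24-2-5p, which is made on chromosome 19 only, had 49.8 rescaled RPKM in spheres and 59.5 in parental cells. miR-27a-3p had 4239 and 2929 rescaled RPKM in spheres and parental cells, miR-27a-5p 554 and 505, and miR-23a-3p 369 and 285. miR-23a-5p was below the limit of 3 reads in spheres and had about 8 reads in parental cells. As deposited, miR-24-3p alone of these was higher, with a log2 fold of 0.61, and the others lay between -2.52 and -1.73.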
